A study of Mus musculus with 24 samples.

Results

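The Wnt signalling genes measured in the cochlea of α9 null and wild type mice were chosen by symbol: every gene whose name begins with Wnt, Fzd, Sfrp or Dkk, together with Frzb, Wif1, Lrp5, Lrp6, Axin1, Axin2, Lef1, Ctnnb1, Apc, Dvl1, Dvl2, Dvl3, Kremen1 and Rspo1, Rspo2 and Rspo3. These were 55 of the 18194 genes that had a probe set with a single symbol. The 55 genes had 108 of the 45101 probe sets on the array, and each gene is represented by the probe set that was brightest over all 24 arrays. Tcf7 was also sought, but no probe set carried its symbol alone. The symbol rule also takes in Dkkl1, a Dickkopf-like gene best known from testis, and Fzd10os, a transcript from the strand opposite Fzd10.

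Cochleae were taken at postnatal days P3, P7, P13 and P60 from α9 null mice (ko), which lack the nicotinic receptor subunit gene Chrna9 in every cell from conception, and from age-matched wild type mice (wt). Both genotypes were 129S6 x CBA/CaJ hybrids that had been backcrossed to CBA/CaJ for at least 7 generations. Each of the 24 arrays (3 per genotype and age) held RNA of pooled cochleae, from 3 to 5 mice by the design text, while the methods count the pools in cochleae and give smaller ones at P13 and P60 than at P3 and P7, so that an array is a pool and the spread between arrays is a spread between pools. The ages cover the time before hearing (P3, P7), hearing onset (P13) and the mature cochlea (P60), and the comparison of genotypes asks what the loss of the α9 receptor changes at each age.

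Wnt ligands are secreted lipid-modified glycoproteins that bind Frizzled receptors, either with the co-receptors Lrp5 and Lrp6, which stabilises β-catenin (Ctnnb1) and lets it act with Lef1 and its Tcf relatives on target genes such as Axin2, or through the planar cell polarity branch. Sfrp proteins, Frzb and Wif1 bind the ligands outside the cell, Dkk1 blocks Lrp5 and Lrp6 with the help of Kremen1, and R-spondins raise the amount of receptor at the surface. In the developing cochlea this signalling is known for its parts in the growth of the sensory epithelium and in the orientation of hair bundles, and in bone Wnt signals drive osteoblasts, so that the cochlear capsule is a second place where these genes act.

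By role the 55 genes were 19 Wnt ligands, 3 R-spondins, 10 Frizzled receptors, 3 co-receptors or co-receptor partners, 11 secreted inhibitors, 6 cytoplasmic components, 2 nuclear factors or targets, and Fzd10os. All values are log2 signals, on which a difference of 1 is a doubling. The probe sets of 12 Wnt ligands, of the inhibitors Dkk2, Dkk4 and Dkkl1, of Rspo1 and of Dvl3 had mean signals under 6.65, the median of all probe sets, where differences are compressed.

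Some facts of the arrays bear on every value below. The 3′ signal of Gapdh exceeded its 5′ signal by more than 4 log2 units in 5 arrays, which are wt P3 replicate 1, ko P3 replicate 2, wt P13 replicates 1 and 2, and wt P60 replicate 1; this gap is commonly read as a measure of RNA integrity. At P13 these arrays were all wild type. The remaining wt P13 array, replicate 3, had a gap of 2.43, against 0.34, -0.15 and -0.15 in the ko P13 arrays. Genotype and this gap therefore cannot be told apart at P13, with or without the 5 arrays. Lateral wall and limbus markers were high throughout, with list means of 9.60 to 11.38 per array, and the hair cell list stayed between 6.03 and 6.68. Those hair cell means lay near or under 6.65, the median of all probe sets, where differences are compressed. The 3 Chrna9 probe sets had group means of 3.66 to 5.57 in ko and 3.79 to 5.96 in wt cochleae, too dim in wild type for the loss of the gene to be checked.

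Over the whole interval from P3 to P60, 6 of the 55 members fell in both genotypes and none rose in both. They were the nuclear factor Lef1, the secreted inhibitors Dkk1, Sfrp2 and Sfrp1, and the ligands Wnt5b and Wnt10b. In ko cochleae 7 members passed as lower and 1 as higher at P60 than at P3, where 8.01% and 6.28% of all 45101 probe sets did so. In wt cochleae 7 passed as lower and 2 as higher, against 6.11% and 7.59% of all probe sets. In both genotypes 4.41% of all probe sets were lower and 4.42% higher, dim probe sets included. Over this interval 14.3% of all probe sets passed in ko and 13.7% in wt. Without the 5 arrays just named, 8 members passed in ko (8.23% of all probe sets lower) and 5 in wt (8.12%), all lower at P60, and 4 passed in both (5.45%). These 4 were Lef1, Dkk1, Sfrp2 and Wif1, so that of the 6 members first named 3 no longer passed in both genotypes: Wnt10b was lost in ko (adjusted p = 0.0878) and in wt (0.112), Wnt5b in wt (0.164) and Sfrp1 in wt (0.0518). Passing here means an adjusted p under 0.05 from limma, fitted over all 24 arrays with 1 mean per genotype and age.

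**Figure D1:**
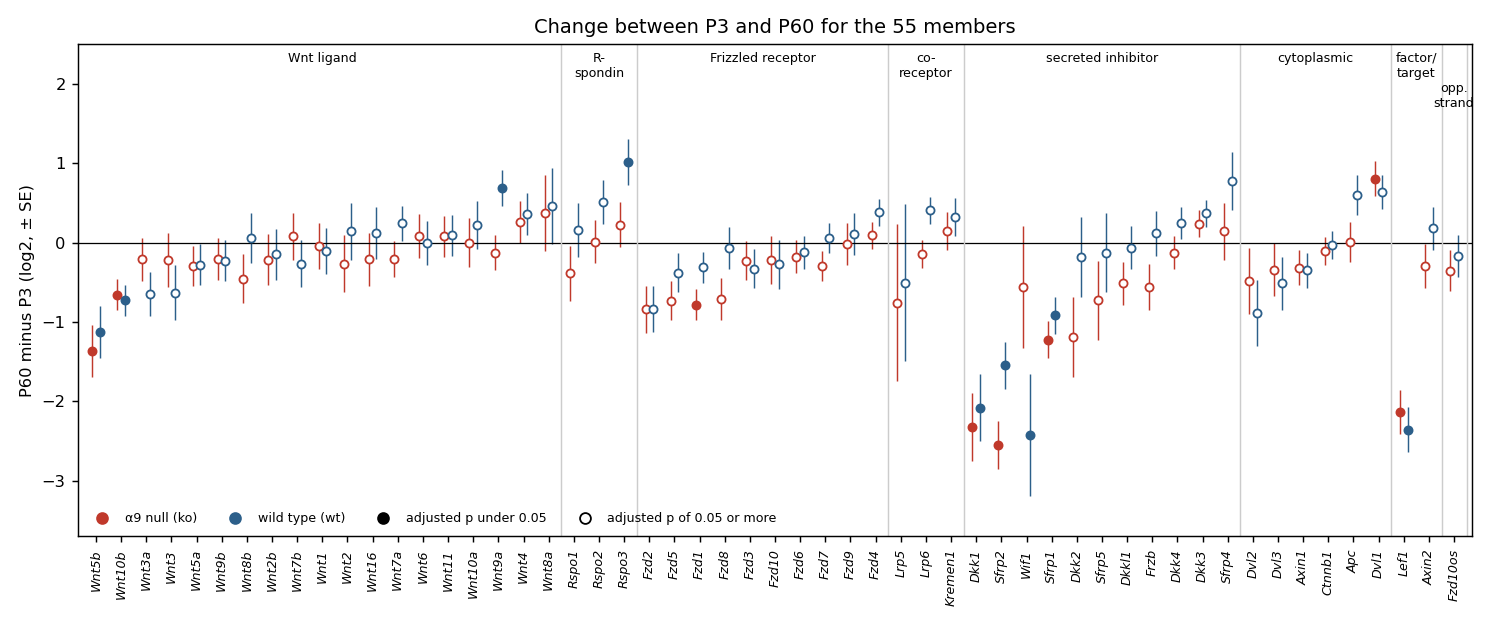
The difference P60 minus P3 (log2, vertical axis, ± SE of the fit) of each of the 55 members, in ko (red) and wt (blue) cochleae, ordered by role and, within a role, by size. Filled points passed the test; Lef1, Dkk1, Sfrp2, Sfrp1, Wnt5b and Wnt10b are the members with both points filled, and all 6 lie below 0.

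By single step, few members passed in both genotypes. From P3 to P7, 3 of 55 members passed in ko (1.21% of all probe sets) and 2 in wt (0.996%); Sfrp1 and Dkk3 were lower in both, where 0.308% of all probe sets were lower and 0.259% higher in both. From P7 to P13, 1 passed in ko (2.94%) and 3 in wt (14.2%), a share under that of all probe sets in either genotype; Wnt10b was lower in both, where 0.559% of all were lower and 1.73% higher. From P13 to P60, 5 passed in ko (7.27%) and 9 in wt (12%). Dkk1, Lef1, Sfrp2 and Fzd5 were lower and Dkk3 higher in both, where 2.92% of all were lower and 1.82% higher. With the 5 arrays named above left out, Sfrp1 no longer passed from P3 to P7 in ko (-0.87, limma adjusted p = 0.122). Dkk3 no longer did in wt (-0.64, 0.0585), while Sfrp1 in wt (-1.09, 0.0369) and Dkk3 in ko (-0.74, 0.0434) still passed. Only 1 wt P13 array was then left, so wt steps with P13 are given by size alone. P13 minus P7 was -0.75 for Wnt10b. P60 minus P13 was -3.12 for Dkk1, -1.61 for Lef1, -0.96 for Sfrp2, -1.26 for Fzd5 and 0.86 for Dkk3.

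Lef1, the high-mobility-group factor that carries β-catenin to DNA, had the following course. In ko cochleae its log2 signal was 9.38, 9.56 and 9.29 at P3, 8.54, 8.17 and 8.53 at P7, then 9.0, 8.70 and 7.93 at P13, and 7.34, 7.48 and 7.02 at P60. In wt cochleae it was 9.35, 10.08 and 9.71 at P3, 8.54, 8.45 and 8.97 at P7, then 9.23, 8.55 and 8.72 at P13, and 7.85, 7.30 and 6.92 at P60. Every P60 array lay below every younger array of its genotype. The P60 level was lower than the P3 level by 4.38-fold in ko (log2 difference -2.13, SE 0.28, limma adjusted p = 3.32e-05) and by 5.12-fold in wt (-2.36, SE 0.28, adjusted p = 8.58e-06). Part of the fall came after hearing onset: P60 minus P13 was -1.26 in ko (SE 0.28, adjusted p = 0.0074) and -1.48 in wt (SE 0.28, adjusted p = 0.0017). The ko call for P60 over P13 was lost without ko P13 replicate 1 (-1.03, adjusted p = 0.0676), and the wt call was lost with the mean over the Lef1 probe sets (-0.63, adjusted p = 0.323). Neither the P7 over P3 step (adjusted p of 0.0925 in ko and 0.0817 in wt) nor the P13 over P7 step of Lef1 passed.

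Axin2, the feedback inhibitor that is a direct target of β-catenin, did not pass at any step. Its log2 signal in ko cochleae was 8.59, 9.24 and 9.29 at P3, 9.12, 7.98 and 8.36 at P7, then 7.77, 8.09 and 7.76 at P13, and 8.63, 8.46 and 9.14 at P60. In wt cochleae it was 9.05, 9.01 and 8.81 at P3, 8.69, 8.04 and 8.69 at P7, then 8.07, 8.64 and 8.53 at P13, and 9.05, 9.02 and 9.34 at P60. Replicates 1 and 3 of ko P13 were the lowest ko arrays, replicate 2 of ko P7 lay below the remaining ko P13 array, and the P60 and P3 arrays overlapped in both genotypes. The difference P60 minus P3 was -0.30 in ko (SE 0.27, adjusted p = 0.541) and 0.18 in wt (SE 0.27, adjusted p = 0.757), and P60 minus P13 was 0.87 in ko (adjusted p = 0.0606) and 0.72 in wt (adjusted p = 0.0933).

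Several secreted inhibitors were lower in the mature cochlea. Dkk1, the Dickkopf that binds Lrp5 and Lrp6, had log2 signals of 9.75, 9.72 and 8.73 at P3, 10.29, 11.39 and 10.17 at P7, then 10.03, 9.44 and 8.83 at P13, and 7.03, 7.44 and 6.76 at P60 in ko cochleae. In wt cochleae Dkk1 had 10.00, 9.38 and 8.98 at P3, 10.05, 11.27 and 10.85 at P7, then 10.19, 10.26 and 10.08 at P13, and 8.21, 7.18 and 6.74 at P60. No P60 array reached the lowest array of any younger age in its genotype. The step that passed was P60 over P13, with -2.36 in ko (SE 0.43, limma adjusted p = 0.0016) and -2.80 in wt (SE 0.43, adjusted p = 0.00023), and P60 minus P3 was -2.32 in ko (adjusted p = 0.00085) and -2.08 in wt (adjusted p = 0.0021). A second Dkk1 probe set, 1458232_at, gave -2.98 in ko (adjusted p = 0.00081) and -3.08 in wt (adjusted p = 0.00055) for P60 minus P3.

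Sfrp2, a secreted Frizzled-related protein that binds Wnt ligands, fell at P60 as well. Its log2 signal in ko cochleae was 9.73, 9.28 and 10.66 at P3, 9.0, 8.98 and 8.70 at P7, then 8.40, 8.58 and 8.61 at P13, and 7.07, 7.43 and 7.52 at P60. In wt cochleae it was 9.41, 9.21 and 9.05 at P3, 8.56, 8.76 and 9.67 at P7, then 8.99, 8.51 and 8.46 at P13, and 8.02, 7.47 and 7.53 at P60. The groups of P60 and P3 did not overlap in either genotype. P60 minus P3 was -2.55 in ko, a 5.87-fold fall (SE 0.30, limma adjusted p = 1.01e-05), and -1.55 in wt, a 2.92-fold fall (SE 0.30, adjusted p = 0.0013). Between P13 and P60 the difference was -1.19 in ko (adjusted p = 0.018) and -0.98 in wt (adjusted p = 0.0394). The P60 over P13 call was lost in ko without any 1 of the 3 ko P13 arrays or without ko P60 replicate 1 (adjusted p = 0.0517 to 0.0941), and in wt without any 1 of the 3 wt P13 arrays or without wt P60 replicate 2 or 3 (adjusted p = 0.0501 to 0.167).

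Sfrp1, its close relative, was lowest at P13, not at P60, on its brightest probe set. Its probe set 1448395_at was also lower at P13, with 7.32 to 8.11 against 8.42 to 8.53 at P60 in ko. In wt that probe set had 7.80 to 8.24 at P13 against 8.42 to 9.52 at P60. The P13 and P60 arrays of 1416594_at, 1438620_x_at and 1460187_at overlapped in both genotypes. The values that follow are of the brightest probe set. In ko cochleae its log2 signal was 9.60, 10.59 and 10.24 at P3, 9.18, 8.66 and 9.32 at P7, then 8.18, 8.50 and 8.57 at P13, and 8.83, 8.88 and 9.05 at P60. In wt cochleae it was 10.28, 10.08 and 10.24 at P3, 9.37, 8.65 and 9.19 at P7, then 8.50, 8.63 and 8.52 at P13, and 9.22, 9.37 and 9.27 at P60. The P13 arrays lay below the P3 arrays in both genotypes, and the P60 arrays lay between the 2. P7 minus P3 was -1.09 in ko (SE 0.23, limma adjusted p = 0.0212) and -1.13 in wt (SE 0.23, adjusted p = 0.0171), P60 minus P3 was -1.22 in ko (adjusted p = 0.001) and -0.92 in wt (adjusted p = 0.0097), and P60 minus P13 was 0.50 in ko (adjusted p = 0.239) and 0.74 in wt (adjusted p = 0.0413). The P7 over P3 call was lost in ko without ko P3 replicate 2 or 3 or ko P7 replicate 1 or 2 (adjusted p = 0.056 to 0.13) and in wt without wt P3 replicate 2 or 3 or wt P7 replicate 2 or 3 (adjusted p = 0.0572 to 0.137), and the wt P60 over P13 call was lost in 9 of 24 fits that left out 1 array (adjusted p up to 0.121, without wt P60 replicate 2). The mean over the Sfrp1 probe sets gave -0.90 in ko for P60 minus P3 (adjusted p = 0.077), and without the arrays whose Gapdh 5′ signal was low the wt value was -0.84 (adjusted p = 0.0518).

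**Figure D2:**
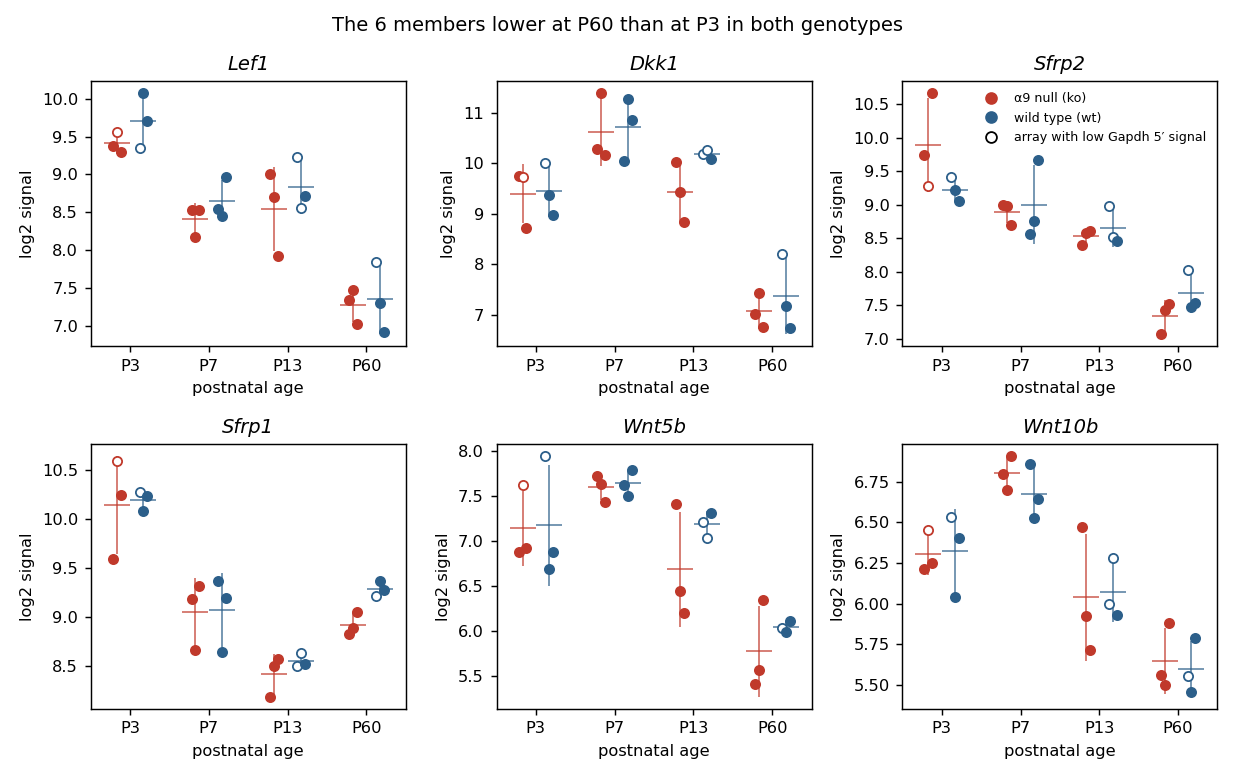
Log2 signal (vertical axis) of the 6 members that were lower at P60 than at P3 in both genotypes, in each array at P3, P7, P13 and P60, ko (red) left of wt (blue). Horizontal bars are means and vertical bars ± 1 SD of 3 arrays; open points are the 5 arrays of low Gapdh 5′ signal. On the brightest probe sets, shown here, Lef1, Dkk1 and Sfrp2 are lowest at P60 and Sfrp1 at P13.

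Dkk3, a divergent Dickkopf that does not share the Lrp binding of Dkk1, also had its low before P60 on its brightest probe set. In ko cochleae its log2 signal was 9.43, 9.98 and 9.71 at P3, 8.90, 8.74 and 8.87 at P7, then 8.94, 9.20 and 9.26 at P13, and 9.94, 9.98 and 9.92 at P60. The wt arrays of Dkk3 read 10.09, 9.56 and 9.70 at P3, 9.15, 9.01 and 8.81 at P7, then 9.42, 9.46 and 9.23 at P13, and 10.28, 10.22 and 9.96 at P60. On this probe set, the brightest, the P7 arrays lay below all P3 and all P60 arrays in each genotype. On a second Dkk3 probe set, 1417312_at, P7 and P3 overlapped: 8.54 to 9.11 against 8.06 to 9.80 in ko, and 8.30 to 8.77 against 8.38 to 9.72 in wt. Its lowest wt arrays were those of P13 (7.19, 7.32 and 8.56). The values 8.06, 8.38, 7.19 and 7.32 are from arrays of low Gapdh 5′ signal. P7 minus P3 was -0.87 in ko (SE 0.17, limma adjusted p = 0.0153) and -0.79 in wt (SE 0.17, adjusted p = 0.027), and P60 minus P13 was 0.82 in ko (adjusted p = 0.0052) and 0.78 in wt (adjusted p = 0.0056). On the values as deposited, where the median P60 minus P13 difference of all probe sets was -0.34 in ko and -0.36 in wt, the rise was 0.45 in ko (adjusted p = 0.0985) and 0.37 in wt (adjusted p = 0.133). The P7 over P3 call was lost in ko without ko P3 replicate 2 or 3 or ko P7 replicate 2 or 3 (adjusted p = 0.0547 to 0.0933), and in wt without wt P3 replicate 1 or 3 or wt P7 replicate 2 or 3 (adjusted p = 0.0792 to 0.161).

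Of the 11 secreted inhibitors, 3 passed as lower at P60 than at P3 in both genotypes, 1 more passed in wt alone (Wif1, described with the genotypes below) and 7 passed in neither. Of all probe sets 4.41% were lower in both genotypes, 8.01% in ko and 6.11% in wt. The differences of the inhibitors that did not pass ran from -1.19 for Dkk2 to 0.24 for Dkk3 in ko, and from -0.18 for Dkk2 to 0.77 for Sfrp4 in wt. The median over all 11 was -0.56 in ko and -0.13 in wt, where the median over all probe sets was -0.06 in ko and -0.04 in wt.

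Among the 19 Wnt ligands only Wnt5b and Wnt10b passed in both genotypes from P3 to P60, both lower at P60, where 4.41% of all probe sets were lower in both. Wnt5b, a ligand of the β-catenin-independent branch that is known in cartilage, had log2 signals of 6.88, 7.62 and 6.92 at P3, 7.73, 7.63 and 7.44 at P7, then 7.41, 6.45 and 6.20 at P13, and 5.41, 5.57 and 6.35 at P60 in ko cochleae. In wt cochleae Wnt5b had 7.95, 6.70 and 6.88 at P3, 7.63, 7.50 and 7.79 at P7, then 7.21, 7.04 and 7.32 at P13, and 6.04, 5.99 and 6.11 at P60. All P60 arrays lay below all P3 arrays of their genotype. The difference was -1.37 in ko (SE 0.32, limma adjusted p = 0.0068) and -1.13 in wt (SE 0.32, adjusted p = 0.0231). The wt call was lost without wt P3 replicate 1 (-0.74, adjusted p = 0.123), wt P60 replicate 1 (-1.13, 0.0513) or wt P60 replicate 2 (-1.10, 0.0608), and without the arrays whose Gapdh 5′ signal was low (-0.74, 0.164). The ko call was kept in all 24 fits that left out 1 array.

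Wnt10b, a ligand of the β-catenin branch known for promoting bone over fat, had its highest mean at P7 and its lowest at P60. In ko cochleae its log2 signal was 6.22, 6.45 and 6.25 at P3, 6.80, 6.70 and 6.91 at P7, then 6.47, 5.93 and 5.71 at P13, and 5.56, 5.50 and 5.88 at P60. In wt cochleae it was 6.53, 6.04 and 6.40 at P3, 6.86, 6.52 and 6.64 at P7, then 6.0, 6.28 and 5.93 at P13, and 5.55, 5.45 and 5.79 at P60. P13 minus P7 was -0.77 in ko (SE 0.20, limma adjusted p = 0.0355) and -0.61 in wt (SE 0.20, adjusted p = 0.043), and P60 minus P3 was -0.66 in ko (adjusted p = 0.0274) and -0.73 in wt (adjusted p = 0.0154). All of these are under 1 log2 unit at a dim probe set. For P60 minus P3 the call was lost in ko without ko P3 replicate 2 or 3 or ko P60 replicate 1 or 2 (adjusted p = 0.0503 to 0.105), and in wt without wt P3 replicate 1 or 3 or wt P60 replicate 2 (adjusted p = 0.0605 to 0.0609). For P13 minus P7 it was lost in 5 of 24 such fits in ko (adjusted p up to 0.242, without ko P13 replicate 3) and in 10 of 24 in wt (up to 0.14, without wt P7 replicate 1). Without the arrays whose Gapdh 5′ signal was low, P60 minus P3 passed in neither genotype, with -0.59 in ko (adjusted p = 0.0878) and -0.60 in wt (0.112), and P13 minus P7 passed in ko (-0.77, 0.0344) and not in wt (-0.75, 0.144).

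Wnt9a passed in wt alone. In ko cochleae it had log2 signals of 7.52, 7.62 and 7.89 at P60 against 7.35, 8.21 and 7.85 at P3, a difference of -0.13 (SE 0.22, adjusted p = 0.777). The wt cochleae had 8.46, 8.15 and 8.40 at P60 against 7.95, 7.53 and 7.45 at P3, a difference of 0.69 (SE 0.22, adjusted p = 0.0459). The wt P60 arrays lay above the wt P3 arrays, and the ko arrays of these ages overlapped. P60 minus P13 was 0.53 in ko (adjusted p = 0.199) and 0.98 in wt (adjusted p = 0.0073). The F test of genotype by age, which takes the 4 ages together and does not isolate this step, did not pass (limma adjusted p = 0.84). For the genotype difference in P60 minus P3 alone, 0 of 55 members and 0 of all 45101 probe sets passed. The wt call for P60 over P3 was lost in 15 of the 24 fits that left out 1 array (adjusted p up to 0.171, without wt P3 replicate 3), and the mean over the probe sets of Wnt9a gave 0.21 for P60 minus P3 (adjusted p = 0.497) and 0.30 for P60 minus P13 (adjusted p = 0.309). The other 16 ligands passed in neither genotype: their differences ran from -0.45 for Wnt8b to 0.37 for Wnt8a in ko and from -0.65 for Wnt3a to 0.46 for Wnt8a in wt.

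Of the 10 Frizzled receptors, 1 passed between P3 and P60, in ko alone, where 8.01% of all probe sets were lower in ko and 6.11% in wt. Fzd1 passed as lower at P60 in ko, with a difference of -0.78 (SE 0.20, adjusted p = 0.01) and 10.09, 9.83 and 10.00 at P60 against 10.47, 10.86 and 10.94 at P3. In wt Fzd1 had 10.68, 9.86 and 10.21 at P60 against 10.51, 10.78 and 10.39 at P3 (-0.31, SE 0.20, adjusted p = 0.355), and its groups overlapped. The mean over the Fzd1 probe sets gave -0.64 in ko (adjusted p = 0.175). The other 9 Frizzled genes passed in neither genotype, with differences from -0.84 for Fzd2 to 0.09 for Fzd4 in ko and from -0.83 for Fzd2 to 0.38 for Fzd4 in wt. Without the arrays whose Gapdh 5′ signal was low, Fzd2 passed as lower in wt (-0.95, limma adjusted p = 0.0273) and not in ko (-0.67, 0.0863).

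Fzd5, a receptor with a part in eye and neural development, was the Frizzled gene that passed in both genotypes from P13 to P60. Its log2 signal was 7.83, 8.29 and 8.12 at P60 against 9.28, 8.86 and 8.95 at P13 in ko cochleae, and 8.91, 8.01 and 8.02 at P60 against 9.68, 9.52 and 9.28 at P13 in wt cochleae. The groups did not overlap in either genotype. The difference was -0.95 in ko (SE 0.25, limma adjusted p = 0.0217) and -1.18 in wt (SE 0.25, adjusted p = 0.0039). In ko it was -0.82 without ko P13 replicate 1 (adjusted p = 0.13) and -0.82 without ko P60 replicate 1 (adjusted p = 0.112). For Fzd9, P60 minus P13 was 0.62 in ko (SE 0.26, adjusted p = 0.199) and 1.20 in wt (SE 0.26, adjusted p = 0.0056).

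Neither co-receptor passed. Lrp6 stayed between 9.86 and 10.37 in the 12 ko arrays and between 9.94 and 10.90 in the 12 wt arrays, with P60 minus P3 of -0.15 in ko (SE 0.18, adjusted p = 0.656) and 0.40 in wt (SE 0.18, adjusted p = 0.147), or 0.61 in wt without wt P3 replicate 1 (adjusted p = 0.0198). The Lrp5 probe set scattered widely within groups: at P7 alone it read 10.59, 5.34 and 7.81 in ko and 8.79, 6.43 and 9.30 in wt. The SE of any Lrp5 difference between ages was 0.99, so that a change of 1 log2 unit was not detectable with these arrays. Kremen1, which works with Dkk1, did not pass at any age step.

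β-catenin (Ctnnb1) had log2 signals of 13.28 to 13.91 in the 12 ko arrays and 13.28 to 13.83 in the 12 wt arrays. P60 minus P3 was -0.11 in ko (SE 0.18, adjusted p = 0.762) and -0.03 in wt (SE 0.18, adjusted p = 0.946), and its P60 and P3 arrays overlapped. Dvl1, one of the Dishevelled proteins that relay the Frizzled signal, was higher at P60 in ko by 0.80 (SE 0.22, adjusted p = 0.0175), with 11.26, 11.54 and 10.76 against 10.78, 10.08 and 10.29 at P3. The P60 and P3 arrays of Dvl1 overlapped by 1 array each in ko. In wt Dvl1 had 10.90, 10.89 and 11.01 at P60 against 10.46, 10.20 and 10.23 at P3, a difference of 0.64 (adjusted p = 0.0603) with groups that did not overlap. The ko call of Dvl1 was lost without ko P60 replicate 2 (0.62, adjusted p = 0.104) and without ko P3 replicate 2 (0.65, adjusted p = 0.0967), ko P3 replicate 3 (0.75, 0.0554) or ko P60 replicate 1 (0.76, 0.0658).

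Apc, the scaffold of the β-catenin destruction complex, passed as lower at P7 than at P3 in ko. Its log2 signal was 9.52, 9.58 and 9.72 at P7 against 10.35, 11.14 and 10.57 at P3 in ko (-1.08, SE 0.25, adjusted p = 0.0396), and 9.69, 9.55 and 9.41 at P7 against 10.40, 10.13 and 10.09 at P3 in wt (-0.66, adjusted p = 0.296). Neither genotype's P7 and P3 arrays overlapped. P13 minus P7 was 0.59 in ko (adjusted p = 0.288) and 0.77 in wt (SE 0.25, adjusted p = 0.0471), but the wt call was lost in 16 of 24 fits that left out 1 array (adjusted p up to 0.163, without wt P13 replicate 2) and the mean over the Apc probe sets gave -0.14 in wt, in the other direction. The mean of the Apc probe sets for P7 minus P3 in ko was -0.04 (adjusted p = 0.971), and the call was lost in 11 of 24 fits that left out 1 array (adjusted p up to 0.221, without ko P3 replicate 2).

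The R-spondins passed in wt only. Rspo3 had log2 signals of 9.48, 9.91 and 9.12 at P60 against 9.80, 9.51 and 8.52 at P3 in ko (0.23, SE 0.29, adjusted p = 0.673), and 10.37, 10.32 and 9.81 at P60 against 9.27, 9.03 and 9.16 at P3 in wt (1.01, SE 0.29, adjusted p = 0.0206). Rspo2 had 7.41, 8.01 and 8.51 at P13 against 7.37, 7.57 and 7.07 at P7 in ko (0.64, SE 0.27, adjusted p = 0.283), and 8.01, 8.47 and 8.21 at P13 against 7.47, 7.25 and 7.02 at P7 in wt (0.98, SE 0.27, adjusted p = 0.0224). On these probe sets, the brightest, the ages overlapped in ko and not in wt for both genes. At P3 Rspo2 had 8.29, 8.54 and 8.51 in ko and 8.38, 8.23 and 8.25 in wt, so its P7 values lay below those of P3 too. A dimmer Rspo3 probe set, 1443187_at, overlapped between the ages in wt, with 5.92, 5.10 and 4.99 at P60 against 5.98, 5.11 and 5.13 at P3. Without the arrays whose Gapdh 5′ signal was low neither passed in wt, with 0.97 for Rspo3 (adjusted p = 0.0808) and 0.96 for Rspo2 (adjusted p = 0.171). Leaving out wt P3 replicate 2 or 3 or wt P60 replicate 1 or 2 ended the Rspo3 call (adjusted p = 0.0574 to 0.0763), and leaving out wt P7 replicate 2 or 3 or wt P13 replicate 2 ended that of Rspo2 (adjusted p = 0.0569 to 0.101). The F test of genotype by age asks whether the genotype difference changes over the 4 ages, and it did not pass for any member. Of the 55 members 0 had an adjusted p under 0.05 in it, against 0.00443% of all probe sets. For 1 member (Dkk4) its unadjusted p was under 0.05, where 6.14% of all probe sets had such a p.

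Other Wnt pathway genes, taken from a list of 58 of which 57 had a probe set, were counted in the same way. From P3 to P60, 18 of the 57 passed as lower in ko and 12 in wt, none passed as higher in either, and 12 were lower in both. Of all probe sets 8.01% were lower in ko, 6.11% in wt and 4.41% in both. With the 5 arrays whose Gapdh 5′ signal was low left out, 20 of the 57 were lower in ko, 16 in wt and 14 in both, against 8.23%, 8.12% and 5.45% of all. With all arrays the median difference of the 57 was -0.49 in ko and -0.44 in wt. The 12 included the β-catenin targets Ccnd1 (cyclin D1, -1.59 in ko and -1.88 in wt) and Myc (-1.85 in ko and -1.14 in wt), the R-spondin receptor Lgr6 (-1.62 in ko and -1.31 in wt), the membrane Wnt inhibitor Apcdd1 (-1.38 in ko and -1.48 in wt), the Wnt5a receptor Ror2 (-1.33 in ko and -1.31 in wt) and the planar polarity protein Vangl2 (-1.41 in ko and -1.36 in wt). For these 6 genes the adjusted p values lay between 2.54e-05 and 0.0052 in ko and between 0.000104 and 0.0067 in wt. Lgr6 had 7.03, 7.03 and 6.76 at P60 against 8.32, 9.16 and 8.21 at P3 in ko, and 7.59, 7.49 and 7.31 at P60 against 9.02, 8.64 and 8.67 at P3 in wt. The P60 and P3 arrays of Lgr6 did not overlap. Ccnd1 and Myc are general growth genes as well as Wnt targets. Between genotypes 1 of the 32 of these genes in the variance filter passed at P13, where 15% of all probe sets tested did: Ccnd1 had 9.70, 9.59 and 9.64 in ko against 8.58, 8.73 and 8.96 in wt (0.89, limma adjusted p = 0.0453). The wt values of 8.58 and 8.73 are from arrays of low Gapdh 5′ signal. At other ages such arrays read lowest of their group too: 10.73 in wt and 10.20 in ko at P3, and 8.69 in wt at P60. The part of this signal in the Ccnd1 difference was not tested.

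Markers of other cell types moved with age in the same arrays. Of all probe sets 8.01% were lower and 6.28% higher at P60 than at P3 in ko, and 6.11% lower and 7.59% higher in wt. Cartilage markers passed as lower at P60 than at P3 for 8 of 10 genes in ko and 6 of 10 in wt, with list means per array of 7.39 to 7.67 at P60 against 9.92 to 11.49 at P3 in ko, and 7.57 to 7.70 against 9.82 to 10.48 in wt. Osteoblast and osteocyte markers passed as lower for 4 of 7 in ko and 5 of 7 in wt, with 10.63 to 10.96 at P60 against 11.66 to 11.80 at P3 in ko and 10.51 to 10.55 against 11.73 to 11.79 in wt. The supporting cell and otic epithelium list had means of 8.93 to 9.13 at P60 against 10.48 to 10.90 at P3 in ko, and 9.24 to 9.38 against 10.56 to 11.04 in wt, with no overlap. Of its 8 genes 3 passed as lower and 2 as higher in each genotype; Oc90, an otoconial protein, had a mean of 5.33 at P60 against 11.24 at P3 in ko and 5.31 against 11.59 in wt. All 5 osteoclast markers were lower in both genotypes. All 6 neutrophil markers were higher in both, and cerebellum markers were higher for 6 of 7 in ko and 4 of 7 in wt, with list means of 10.22 to 12.28 at P60 against 7.12 to 7.98 at P3 in ko and 8.58 to 11.20 against 7.13 to 7.50 in wt. The part of these cells in the age changes of the Wnt genes was not tested. In such pooled tissue fewer cells of a type and less RNA per cell cannot be told apart.

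Between genotypes, no member passed at P3, P7 or P60, and 1 passed at P13. The test here compared 3 ko with 3 wt arrays of 1 age, among the 18041 probe sets of highest variance, which held 18 of the 55 members. Of those probe sets, 0% passed at P3, 0.0111% at P7, 15% at P13 (11% higher and 4.01% lower in ko) and 0% at P60. At P3 and P60 no member and no probe set passed by limma; among the 55 members, with no filter, 0 had an unadjusted p under 0.05 at P3 and at P7, where 2.05% and 1.69% of all probe sets did, and 2 at P60, both lower in ko, where 5.18% of all did.

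The member that passed at P13 was Wif1, Wnt inhibitory factor 1, a secreted protein that binds Wnt ligands through its WIF domain. Its log2 signal was 11.54, 10.52 and 10.39 in ko P13 cochleae, against 8.0, 9.30 and 9.46 in wt P13 cochleae. All ko arrays lay above all wt arrays. The means were 10.81 ± 0.63 in ko and 8.92 ± 0.80 in wt (SD, n = 3 each), a difference of 1.89 (SE 0.48, limma adjusted p = 0.0391). Without the variance filter the adjusted p was 0.059, and in the fit of all 24 arrays it was 0.176.

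Wif1 read low in the arrays of low Gapdh 5′ signal at other ages too. At P3 ko replicate 2 had 7.03, against 10.10 and 9.49 in the other ko arrays, and wt replicate 1 had 7.50, against 10.41 and 10.05 in the other wt arrays. At P60 wt replicate 1 had 5.33, against 7.39 and 7.98 in the other wt arrays. The wt P13 array of lowest Wif1, replicate 1, was also of this kind. Without these arrays, which left 3 ko and 1 wt array at P13, the difference was 1.35 (SE 0.52, adjusted p = 0.275), on the assumption that the lone wt array varies like the ko arrays. Leaving out 1 array at a time gave differences of 1.43 to 2.17, and the call was held only without wt replicate 3 (adjusted p = 0.0251). It was lost without wt replicate 1 (adjusted p = 0.0625), wt replicate 2 (0.0972), ko replicate 1 (0.0888), ko replicate 2 (0.0995) or ko replicate 3 (0.109). The lateral wall and limbus list had means of 10.75 to 11.23 in ko against 9.98 to 10.78 in wt P13 arrays. Of the 15 marker lists 2 did not overlap between the genotypes at P13. The share of all probe sets without overlap was not counted, while 26.8% of all had an unadjusted limma p under 0.05 at P13. The neutrophil list had 11.89 to 12.17 in ko against 12.37 to 12.95 in wt, and the keratinocyte list 5.38 to 5.59 in ko against 5.62 to 5.93 in wt. The skeletal muscle list had 7.18 to 7.46 in ko against 7.08 to 10.02 in wt. The part of these cells in the Wif1 difference was not tested.

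**Figure D3:**
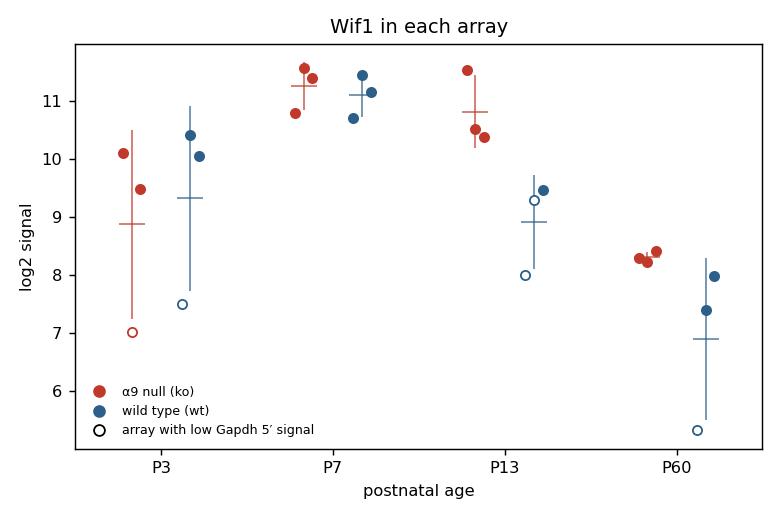
Log2 signal of Wif1 (vertical axis) in each of the 24 arrays at P3, P7, P13 and P60, ko (red) left of wt (blue), with the mean and ± 1 SD of 3 arrays. Open points are the 5 arrays of low Gapdh 5′ signal: at P3 and P60 they read 5.33 to 7.50, below the other arrays of their group.

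Wif1 also had wide age differences. In ko its log2 signal was 10.79, 11.57 and 11.40 at P7 and 8.29, 8.22 and 8.41 at P60, and in wt it was 10.70, 11.45 and 11.15 at P7. P60 minus P13 was -2.50 in ko (SE 0.77, limma adjusted p = 0.0536) and -2.02 in wt (SE 0.77, adjusted p = 0.0938), and neither passed. P60 minus P3 was -0.56 in ko (SE 0.77, adjusted p = 0.701) and -2.42 in wt (SE 0.77, adjusted p = 0.0406), which passed. Without wt P60 replicate 1 the wt value was -1.63 (adjusted p = 0.202), without wt P3 replicate 2 it was -1.87 (0.193), without wt P3 replicate 3 it was -2.05 (0.161), without wt P60 replicate 2 it was -2.66 (0.0526), without ko P60 replicate 1, which enters only through the shared spread, it was -2.42 (0.0501), and without the arrays whose Gapdh 5′ signal was low it was -2.55 (0.00038). With those arrays left out Wif1 also passed in ko, with -1.49 (adjusted p = 0.0084). At P60 Wif1 was again higher in ko, by 1.41, with arrays that did not overlap, but the test did not pass (SE 0.63, adjusted p = 0.781), and without wt P60 replicate 1, the array of low Gapdh 5′ signal, the difference was 0.62 (SE 0.31, adjusted p = 0.963).

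Other members with an unadjusted p under 0.05 at P13, all with adjusted p values of 0.1 or more over all probe sets, were Dkk1 (-0.74), Wnt1 (-0.66), Rspo1 (-0.55), Axin2 (-0.54), Fzd5 (-0.46) and Fzd7 (-0.42), which were lower in ko, and Wnt5a (0.53), which was higher. With Wif1 these were 8 of the 55 members, where 26.8% of all 45101 probe sets had an unadjusted p under 0.05. Dkk1 had 10.03, 9.44 and 8.83 in ko against 10.19, 10.26 and 10.08 in wt P13 cochleae. Wnt5a, the ligand of the Ror2 receptor and of planar polarity, had 10.09, 10.10 and 10.34 in ko against 9.66, 9.54 and 9.75 in wt. Wnt1, the founding member of the ligand family and dim here, had 5.25, 5.05 and 4.74 in ko against 5.86, 5.82 and 5.35 in wt. The groups of these 3 genes did not overlap, and none passed, with adjusted p values of 0.169 for Dkk1, 0.103 for Wnt5a and 0.115 for Wnt1. The median ko minus wt difference of the 55 members at P13 was -0.17, and that of all probe sets -0.12.

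At P60 Dkk4, a Dickkopf inhibitor, had 3.56, 3.41 and 3.42 in ko against 4.36, 4.0 and 4.24 in wt (-0.74, SE 0.20, adjusted p = 0.881), near the lower end of the array's signals. Wnt9a had 7.52, 7.62 and 7.89 in ko against 8.46, 8.15 and 8.40 in wt (-0.66, SE 0.21, adjusted p = 0.881). Rspo3 had 9.48, 9.91 and 9.12 in ko against 10.37, 10.32 and 9.81 in wt (-0.66, SE 0.28, adjusted p = 0.881). None of these passed, and no probe set on the array did.

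At the younger ages the member differences were smaller. At P3 they ran from -0.45 for Wif1 to 0.67 for Sfrp2, whose arrays read 9.73, 9.28 and 10.66 in ko against 9.41, 9.21 and 9.05 in wt. Apc had 10.35, 11.14 and 10.57 in ko against 10.40, 10.13 and 10.09 in wt (0.48), and Dkk4 had 3.43, 3.86 and 3.48 in ko against 4.10, 3.72 and 4.04 in wt (-0.36). The ko and wt arrays of all 3 genes overlapped. At P7 they ran from -0.32 for Wnt11 to 0.39 for Dvl1, whose arrays read 10.32, 10.13 and 10.41 in ko against 10.20, 9.90 and 9.61 in wt. Wnt1 had 4.87, 4.69 and 5.32 in ko against 5.34, 4.90 and 5.55 in wt (-0.30), and Lef1 differed by -0.24. These groups overlapped too, and every adjusted p of a member at P3 and P7 was close to 1.

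The dimmer probe sets of the same genes differed from the brightest ones at P13. The 55 genes had 53 further probe sets, of which 32 were in the variance filter; 7 of these 32 passed as higher in ko at P13 and 0 as lower, against 11% and 4.01% of all probe sets tested. They belong to Fzd2 (2 probe sets), Fzd1, Fzd4, Fzd6, Ctnnb1 and Wnt5a. The widest difference was that of 1430533_a_at for Ctnnb1, with 11.14, 11.30 and 11.11 in ko against 5.37, 6.60 and 10.00 in wt (3.86, SE 1.03, limma adjusted p = 0.043). The brightest Ctnnb1 probe set differed by -0.05 in the same arrays. For Fzd2, 1418532_at had 8.54, 8.54 and 8.21 in ko against 5.74, 5.53 and 7.08 in wt (2.31, SE 0.40, adjusted p = 0.0173), while the brightest Fzd2 probe set had 8.48, 7.74 and 7.97 in ko against 8.97, 8.39 and 8.06 in wt (-0.41). For Fzd6, 1448662_at had 6.28, 6.55 and 6.94 in ko against 4.92, 4.89 and 5.17 in wt (1.59, adjusted p = 0.0144), while the brightest differed by 0.15.

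These 3 of the 7 probe sets had no overlap between the 5 arrays of low Gapdh 5′ signal, which are of P3, P13 and P60, and the other 19 arrays. Further probe sets of Frzb (1448424_at), Dvl1 (1450978_at) and Sfrp1 (1460187_at), not among the 7, did not overlap either. The share of all probe sets that separate in this way was not counted. The 7 were picked at P13, where wt replicates 1 and 2 were low arrays, so part of the separation follows from that choice. The Ctnnb1 probe set 1430533_a_at read 5.37 to 7.35 in the 5 arrays of low Gapdh 5′ signal and 9.25 to 12.09 in the other 19, of both genotypes. The Fzd2 probe set 1418532_at read 4.87 to 5.93 in those 5 arrays and 7.08 to 10.26 in the other 19, and the Fzd6 probe set 1448662_at read 4.29 to 4.92 against 5.12 to 7.12. The other 4 of the 7 overlapped: the second Fzd2 probe set, 1418533_s_at, read 5.10 to 7.02 in those 5 arrays against 6.66 to 9.44 in the other 19, that of Fzd4 7.20 to 7.91 against 7.03 to 9.89, that of Fzd1 4.45 to 5.36 against 5.00 to 7.56, and that of Wnt5a 6.86 to 9.04 against 7.50 to 9.78. The brightest probe sets of Ctnnb1, Fzd2 and Fzd6 overlapped between the 2 kinds of array. Leaving out 1 array moved the count of 7 to 0 without wt replicate 2, ko replicate 2 or ko replicate 3, to 4 without wt replicate 1 or ko replicate 1, and to 12 without wt replicate 3. With the low arrays left out, the differences were 1.18 for the Ctnnb1 probe set, 1.34 for that of Fzd2 and 1.41 for that of Fzd6. The other 4 then differed by 0.98 for the second Fzd2 probe set, 1.14 for Fzd1, 1.24 for Fzd4 and 1.64 for Wnt5a. With all arrays these 4 differed by 1.87, 1.37, 1.10 and 1.72. The wt P13 array left, replicate 3, still had a Gapdh gap of 2.43, against -0.15 to 0.34 in the ko P13 arrays. With 1 wt P13 array left, none of the 18041 probe sets tested passed, where 6 of the 32 further ones had an unadjusted p under 0.05, all higher in ko, and 11.2% of all 18041 were higher and 5.66% lower at that p.

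**Figure D4:**
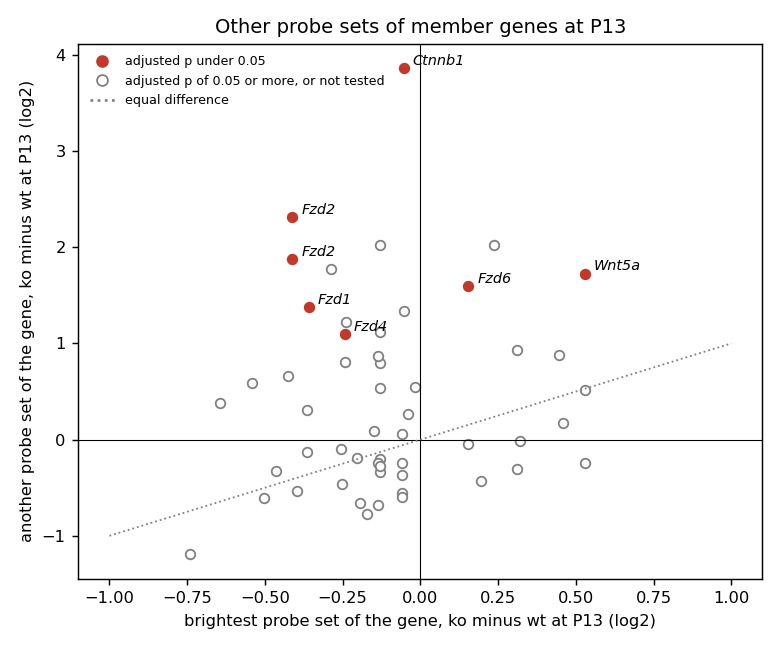
Difference ko minus wt at P13 (log2) of each of the 53 further probe sets of member genes (vertical axis) against that of the brightest probe set of the same gene (horizontal axis). The 7 that passed (red, named by gene) lie at 1.10 to 3.86, while the brightest probe sets of those genes lie between -0.41 and 0.53; the dotted line marks equal differences.

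Promoter sequences are shown for Dkk1 and Lef1, which had large age changes, and for Wif1, the member that passed between genotypes, to show whether the letters that Tcf and Lef factors bind stand near their starts. RefSeq (GRCm38.p6) gave 42 promoters for 35 of the 55 members, here the 250 bases before each start on the strand of the gene. The motifs searched on both strands were CTTTGAT and CTTTGAA, forms of the Tcf/Lef core, and TATAAA, the TATA box; they do not overlap each other in the sequences shown. Capitals mark matches. The promoters are Dkk1 at chr19:30549497-30549746 (minus strand), Lef1 at chr3:131110047-131110296 (plus strand, the first of 4 starts) and Wif1 at chr10:121033754-121034003 (plus strand).
Dkk1: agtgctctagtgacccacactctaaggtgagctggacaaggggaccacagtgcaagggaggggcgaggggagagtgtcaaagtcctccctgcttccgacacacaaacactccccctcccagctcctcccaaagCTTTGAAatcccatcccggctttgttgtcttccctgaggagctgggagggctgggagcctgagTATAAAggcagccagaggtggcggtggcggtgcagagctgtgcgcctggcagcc
Lef1: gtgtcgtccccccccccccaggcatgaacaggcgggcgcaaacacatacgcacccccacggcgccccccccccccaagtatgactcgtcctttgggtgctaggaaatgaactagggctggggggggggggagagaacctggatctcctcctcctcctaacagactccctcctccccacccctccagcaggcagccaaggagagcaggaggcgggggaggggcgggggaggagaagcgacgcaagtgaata
Wif1: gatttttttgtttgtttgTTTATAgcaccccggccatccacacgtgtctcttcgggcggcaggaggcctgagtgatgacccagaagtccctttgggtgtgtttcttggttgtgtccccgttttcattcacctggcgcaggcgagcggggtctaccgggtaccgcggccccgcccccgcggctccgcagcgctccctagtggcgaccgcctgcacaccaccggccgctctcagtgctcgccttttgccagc

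Dkk1 held CTTTGAA, its first base 117 bases before the start, and TATAAA, 54 bases before it. The Lef1 window held none of the 3 motifs, and the Wif1 window held TATAAA on the opposite strand, 232 bases before the start. One of the 2 Tcf/Lef forms stood in 3 of the 42 member promoters (7.14%), those of Dkk1, Wnt5b and Wnt11, and in 7.48% of all 32851 promoters of this length, so the members' share is near that of all promoters. TATAAA stood in 7 of the 42 (16.7%) and in 12.4% of all. The median GC content of the member promoters was 66.8% and that of all promoters 52.4%.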

How the data were processed

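Cochlear RNA of α9 null and wild type mice was hybridised to 24 Affymetrix mouse arrays. The deposited log2 values had been made by the authors by correcting the background as in RMA, normalizing quantiles and summarising probes with the Tukey biweight; no depth applies to arrays, and their number limits the precision. Because array medians differed between ages, the log2 values were quantile-normalized again over all 24 arrays. Tests used limma 3.58.1 in R 4.3.3, with Benjamini-Hochberg adjustment over all probe sets tested, and figures used matplotlib 3.10.9. Genotypes were compared within an age among the 40% of probe sets of highest variance, following the study's methods; ages were compared in 1 fit of 8 group means over all 45101 probe sets. An adjusted p under 0.05 is called passing; a log2 difference above 1.5 is not required for it. Of 45101 probe sets, 34958 had 1 symbol, 932 several and 9211 none in GEO's platform annotation, and only the first were named. The code was tested on simulated data. Pools are the replicates, and the sources used here do not say whether they were independent collections.

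The members and gene lists were chosen with earlier results of these data known. Values per array are given for Axin2, Lef1, Ctnnb1, Lrp5 and Lrp6; for up to 4 members per role with the largest P60 over P3 change that passed in both genotypes without overlap; for up to 2 per step between adjacent ages; for members passing between genotypes or, where fewer than 3 did, the 3 with the smallest unadjusted p; and for any passing the F test of genotype by age. Other genes with values were picked after their values were seen. The alternatives were the scale of the values, the filter, the probe set of a gene, the arrays in the fit, array weights, poly-A control transcripts, the replicate number as a block and leaving out arrays.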

Additional observations from a re-analysis of the deposited data

How the results depend on the processing

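Main counts of passing members, by limma, are in brackets. For ko over wt at P13 [1], the count was 0 with no variance filter, with 8 group means over all arrays and with the replicate block. It was 2 with the mean of the probe sets of a gene and 9 with array weights. Array weights gave higher counts in every comparison named in this paragraph. In ko, P7 over P3 [3] gave 1 on the values as deposited, 1 with the mean of the probe sets, 9 with array weights, 5 with poly-A control transcripts as a covariate and 0 with only the arrays of the groups compared; P13 over P7 [1] gave 0 with the variance filter, 3 with the mean of the probe sets, 3 without the arrays whose Gapdh 5′ signal was low, 12 with array weights and 2 with the poly-A covariate. Also in ko, P60 over P13 [5] gave 10 as deposited and 17 with array weights, and P60 over P3 [8] gave 5 with the variance filter, 15 with array weights and 5 with only the arrays compared. In wt, P7 over P3 [2] gave 1 as deposited, 1 with each array centred on its median, 1 with the variance filter, 1 with the mean of the probe sets, 4 without the arrays whose Gapdh 5′ signal was low, 15 with array weights and 1 with only the arrays compared. P13 over P7 in wt [3] gave 6 as deposited, 5 with the mean of the probe sets and 24 with array weights. P60 over P13 in wt [9] gave 14 as deposited, 22 with array weights and 2 with only the arrays compared, and P60 over P3 in wt [9] gave 5 without the arrays whose Gapdh 5′ signal was low, 20 with array weights and 2 with only the arrays compared. The F test of genotype by age [0] gave 4 with array weights. The causes were not tested.

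Leaving out 1 array at a time, the counts ranged from 0 to 1 for ko over wt at P13, from 0 to 5 in ko and 0 to 4 in wt for P7 over P3, from 0 to 3 in ko and 0 to 6 in wt for P13 over P7, from 2 to 6 in ko and 6 to 11 in wt for P60 over P13, and from 6 to 11 in ko and 5 to 10 in wt for P60 over P3; the other counts, for ko over wt at P3, P7 and P60 and for the F test, stayed at 0 to 0.

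One difference that passed turned its sign: Apc P13 over P7 in wt, 0.77 with the brightest probe set, was -0.14 with the mean of the probe sets. The other reversals were of differences that did not pass. Axin2 P60 over P3 was 0.065 in ko and -0.21 in wt, and Ctnnb1 P60 over P3 was 0.036 in ko, again with the mean of the probe sets. Ctnnb1 P60 over P3 in ko was also 0.060 with array weights and ranged from -0.19 to 0.037 when 1 array was left out, and in wt it then ranged from -0.21 to 0.12. Lrp5 P60 over P3 in wt, -0.51 with all arrays, was 0.47 without the arrays whose Gapdh 5′ signal was low, 0.59 with array weights and -1.10 to 0.24 when 1 array was left out. Over the named genes, 1480 values under an alternative kept their direction and their side of the threshold, 259 kept the direction but no longer passed, 2 newly passed and 12 reversed.

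The replicate numbers did not pair the arrays: deviations of arrays with the same number correlated at -0.50, -0.62 and 0.46 at P3, and at 0.35, 0.15 and 0.063 at P13, where all were above 0 but 1 was under 0.1. With the block the adjusted p of Wif1 at P13 was 0.0624. With the replicate number as a block the counts were 0 at P13, 3 in ko and 3 in wt for P7 over P3, 1 in ko and 3 in wt for P13 over P7, 6 in ko and 10 in wt for P60 over P13, and 9 in each for P60 over P3. Relative to the quantile scale, the values as deposited shift the median of all probe sets for P60 over P13 to -0.34 in ko and -0.36 in wt. Signals under the array median compress differences, which limits 12 of the 19 Wnt ligands.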
